A study of Mus musculus with 4 samples.

Results

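The Hox genes of mouse hindlimb muscle were examined in 4 libraries of gastrocnemius, the large calf muscle. Every deposited row whose symbol had the form Hox, a cluster letter from a to d and a position number was taken, which gave 39 of 23282 gene rows. The mice were CDF1, a hybrid laboratory strain, described in the methods as male and labelled with the age of postnatal day 28. The methods give 4 weeks as the age at purchase and place sampling at the end of the experiment. The muscle therefore came from mice older than the label states. The groups were normal control (E-T-), without exercise or tumor, normal exercise (E+T-), which ran on a motorized treadmill at high intensity, cancer control (E-T+), which received CT26 cells through the tail vein and did not run, and cancer exercise (E+T+), which received the cells and ran. CT26 is a mouse colorectal cancer cell line, and the study's text describes spread through the body after this injection. No group carried an engineered allele. Each group had 1 library. The labels give 10 mice per group, whereas the study's text describes a single representative animal for sequencing, so the number of animals behind a library was not settled. No difference below therefore has a replicate check, no p-value is given, and the intervals cover counting error only.

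Hox genes encode homeodomain transcription factors that give cells their position along the body axis and along the limb. They lie in 4 clusters, HoxA on chromosome 6, HoxB on chromosome 11, HoxC on chromosome 15 and HoxD on chromosome 2, and genes with the same position number in different clusters are paralogs. Genes with low numbers are used toward the head, genes with high numbers toward the tail and the limb tip, and adult cells of connective tissue and muscle keep part of this pattern. In whole muscle, fewer cells of a type and less RNA per cell cannot be told apart.

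The libraries held from 10647640 reads (cancer control) to 13225893 reads (normal exercise), with 11269758 in normal control and 11026655 in cancer exercise. The values were made from 3′ end reads, which are taken near the end of each transcript, so levels of different genes were compared without dividing by transcript length. Where 4 values are listed without naming the library, their order is E-T-, E+T-, E-T+ and E+T+. The normalized read count is the deposited value taken off its log2 scale, and reads are the whole numbers behind it, rebuilt from the steps of the deposited values. The tissue label was checked against muscle fibre markers. All 10 of them (Acta1, Ckm, Myh1, Myh2, Myh4, Tnnt3, Mylpf, Actn3, Tnni2 and Tnnc2) had reads in every library, and Acta1, skeletal muscle actin, had between 125925 and 334756 reads.

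The homeobox, the 180 bases that encode the DNA-binding homeodomain, is shown for the most abundant member, Hoxc10 (chr15:102966796-102971893, plus strand), for its paralogs Hoxa10 (chr6:52231197-52240854, minus strand) and Hoxd10 (chr2:74691924-74695105, plus strand), and for its neighbour Hoxc9 (chr15:102976439-102985099, plus strand). These are gene spans in GENCODE vM21 on GRCm38, the assembly that mm10 names, and the bases were read 5′ to 3′ from the coding part of the longest protein-coding transcript. Capitals mark bases that differ from Hoxc10. They are shown because reads of near-identical paralogs could have been exchanged in counting.
Hoxc10: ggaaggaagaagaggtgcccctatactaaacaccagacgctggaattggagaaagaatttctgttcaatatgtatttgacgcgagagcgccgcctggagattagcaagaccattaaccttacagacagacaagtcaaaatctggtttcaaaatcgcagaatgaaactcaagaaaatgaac
Hoxa10: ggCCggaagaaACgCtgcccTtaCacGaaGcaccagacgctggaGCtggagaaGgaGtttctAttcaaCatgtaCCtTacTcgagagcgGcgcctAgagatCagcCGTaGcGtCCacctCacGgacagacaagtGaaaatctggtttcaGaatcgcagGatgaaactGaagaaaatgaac
Hoxd10: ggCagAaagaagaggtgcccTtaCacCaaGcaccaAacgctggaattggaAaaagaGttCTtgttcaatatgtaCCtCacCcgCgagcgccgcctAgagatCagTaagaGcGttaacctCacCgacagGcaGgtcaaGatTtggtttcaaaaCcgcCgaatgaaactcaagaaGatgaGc
Hoxc9: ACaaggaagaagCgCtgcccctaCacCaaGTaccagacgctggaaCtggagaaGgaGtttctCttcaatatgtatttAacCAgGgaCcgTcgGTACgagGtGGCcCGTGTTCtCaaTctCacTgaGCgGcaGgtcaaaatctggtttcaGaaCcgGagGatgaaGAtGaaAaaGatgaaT

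The homeobox of Hoxa10 differed from that of Hoxc10 at 35 of 180 bases, that of Hoxd10 at 31 and that of Hoxc9 at 51. Over the whole transcripts, the longest stretch identical to Hoxc10 was 17 bases in Hoxa10, 16 in Hoxd10 and 17 in Hoxc9. Runs of 25 identical bases were shared more widely among other members. The annotated exons of Hoxd3 and Hoxd4 shared 388 bases on the same strand, and those of Hoxc5 and Hoxc10 shared 166. Hoxb3 and Hoxd3, in different clusters, had 37 such 25-base words in common. How the counting treated reads that match several genes is not given in the sources used here.

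Promoter windows are shown for 3 HoxD genes that stand at different levels in the results below, namely Hoxd8 with the most reads in the cluster, Hoxd10 with nearly none in cancer control, and Hoxd13 with none anywhere. They run from 250 bases before to 50 bases after the RefSeq start on GRCm38.p6, all on the plus strand, and capitals mark CG dinucleotides. They were chosen after the values were seen.
Hoxd8, chr2:74704365-74704664: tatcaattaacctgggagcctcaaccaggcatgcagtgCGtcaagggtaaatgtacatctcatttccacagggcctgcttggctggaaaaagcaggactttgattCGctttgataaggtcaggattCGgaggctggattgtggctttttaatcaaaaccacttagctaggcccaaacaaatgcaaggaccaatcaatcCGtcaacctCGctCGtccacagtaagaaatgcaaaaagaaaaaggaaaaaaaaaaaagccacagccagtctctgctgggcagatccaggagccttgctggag
Hoxd10, chr2:74691641-74691940: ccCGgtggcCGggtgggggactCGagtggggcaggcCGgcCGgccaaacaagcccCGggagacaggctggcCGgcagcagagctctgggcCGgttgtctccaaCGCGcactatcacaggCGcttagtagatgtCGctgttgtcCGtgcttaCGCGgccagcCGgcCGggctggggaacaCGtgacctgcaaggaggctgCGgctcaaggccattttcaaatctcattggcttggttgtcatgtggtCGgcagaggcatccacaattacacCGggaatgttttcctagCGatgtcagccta
Hoxd13, chr2:74667975-74668274: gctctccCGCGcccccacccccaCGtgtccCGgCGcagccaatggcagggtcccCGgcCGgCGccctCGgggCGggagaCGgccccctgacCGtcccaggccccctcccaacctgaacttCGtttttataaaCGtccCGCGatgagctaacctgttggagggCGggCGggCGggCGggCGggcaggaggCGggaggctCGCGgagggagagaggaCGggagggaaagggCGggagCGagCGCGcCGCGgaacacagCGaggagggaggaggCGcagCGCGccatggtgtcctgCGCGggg

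The Hoxd8 window held 6 CG dinucleotides, that of Hoxd10 held 22 and that of the undetected Hoxd13 held 37. RefSeq windows were at hand for 22 of the 39 Hox genes (24 windows), and Hoxc10 and Hoxc9 were not among them. The median was 14.5 CG per Hox window and 7 over all 32851 windows. Searched on both strands, the letters TATAAA occurred in 4 of the 24 Hox windows and in 13.6% of all windows. CCAAT occurred in 15 of the 24 and in 37.4% of all. TGATTNAT, a form bound by Hox proteins together with Pbx partners, occurred in 2 of the 24 and in 3.22% of all. These are matches of letters and not known binding sites.

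Gastrocnemius carried a Hox pattern centred on positions 8 to 10. Hox genes together had 5527, 7220, 4041 and 4978 reads. Per 1000000 reads of the library this was 490.4 (95% Poisson interval 478 to 504), 546 (533 to 559), 379.5 (368 to 391) and 451 (439 to 464). Of the 39 genes, 24 had reads in every library, 9 in 1 to 3 libraries and 6 in none. A normalized read count of 4 was reached in at least 1 library by 31 genes, and of 16 by 25 genes, of which 18 stayed at or above 16 in all 4 libraries.

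**Figure D1:**
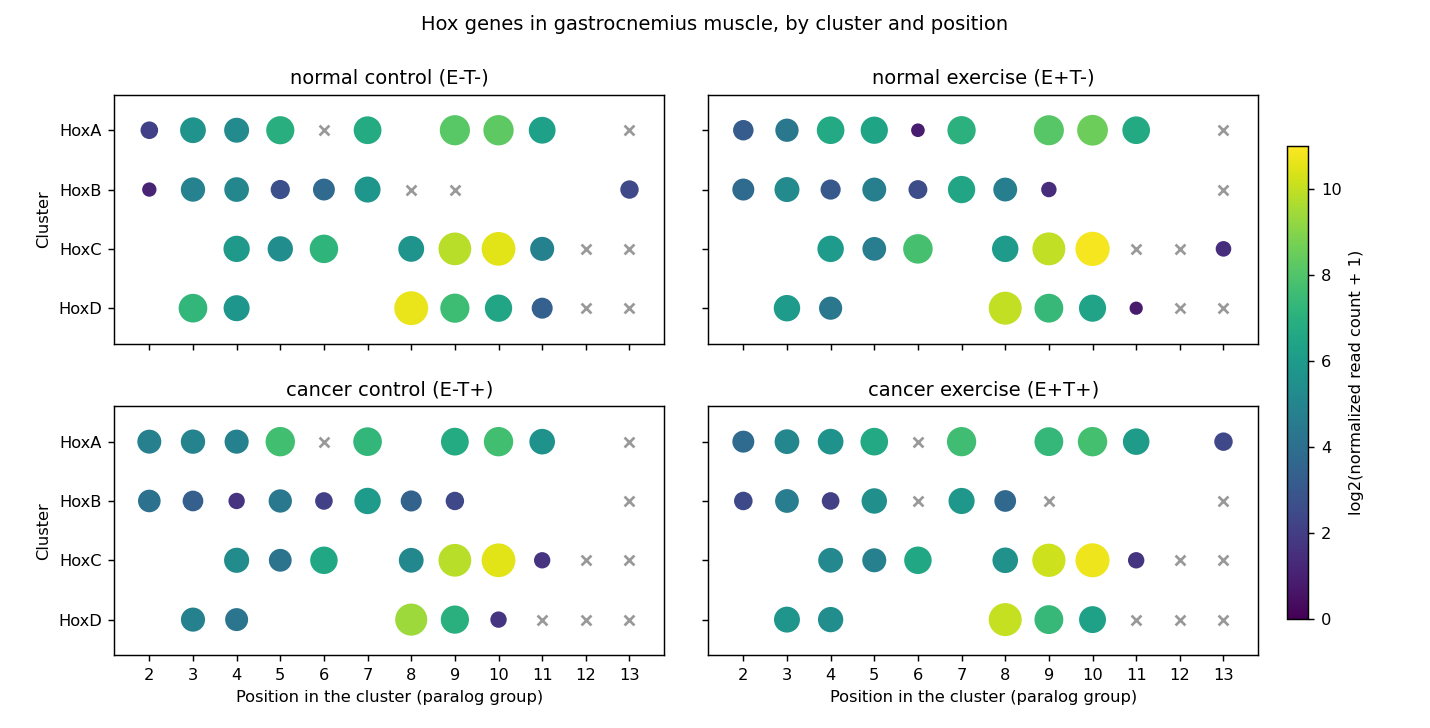
Each panel is 1 library, with the Hox clusters as rows and positions 2 to 13 in the cluster along the horizontal axis. Circle size and color give log2(normalized read count + 1), crosses mark genes with 0 reads, and empty places hold no gene; the largest circles are Hoxc9, Hoxc10 and Hoxd8 in every panel, and crosses fill position 12.

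Read by position, both ends of the clusters had few reads or none. Hoxb1 and Hoxd1, at the head ends of their clusters, and Hoxc12 and Hoxd12, near the other end, had 0 reads in all libraries. A count of 0 allows up to 3 reads, that is 0.227 to 0.282 per 1000000 reads in these libraries. Position 13, used in the embryonic paw, tail and genital region, had 4, 2, 0 and 4 reads over its 4 genes. Those were the 4 reads of Hoxb13 in normal control, the 2 of Hoxc13 in normal exercise and the 4 of Hoxa13 in cancer exercise, while Hoxd13 had none. Position 11, with Hoxa11, Hoxc11 and Hoxd11, took between 1.11% and 1.85% of the Hox reads.

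Positions 9 to 11 together held 56.9% (95% Clopper-Pearson interval 55.6 to 58.2), 65.6%, 66.4% and 65.5% of the Hox reads. Positions 4 to 8 held 39.1%, 32%, 31.2% and 32.1%. Positions 1 to 3 held 3.96%, 2.41%, 2.45% and 2.35%. Normal control was the highest of the 4 libraries for positions 4 to 8 and the lowest for positions 9 to 11, and the other 3 libraries lay close to each other in both bands. Hoxd8 alone gave 1486 of the 2159 reads of positions 4 to 8 in normal control and 622 of 1259 in cancer control. Position 8 held 27.8%, 18.9%, 16.4% and 20.2% of the Hox reads. At none of positions 4 to 7, taken singly, did normal control have the highest share.

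The clusters were unequal in every library. HoxC held the largest share of the Hox reads, with 45.7%, 55%, 59.4% and 56.7%. HoxD followed with 35.2%, 23%, 19.4% and 25.4%. HoxA held 16.7%, 18.5%, 18.3% and 15.2%. HoxB, a cluster best known in blood cells, hindbrain and trunk, held only 2.35%, 3.42%, 2.92% and 2.65%, although 6 to 8 of its 10 genes had reads in each library. The order HoxC, HoxD, HoxA, HoxB held in all 4 libraries, with HoxD and HoxA nearest to each other in cancer control, at 784 and 738 reads.

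**Figure D2:**
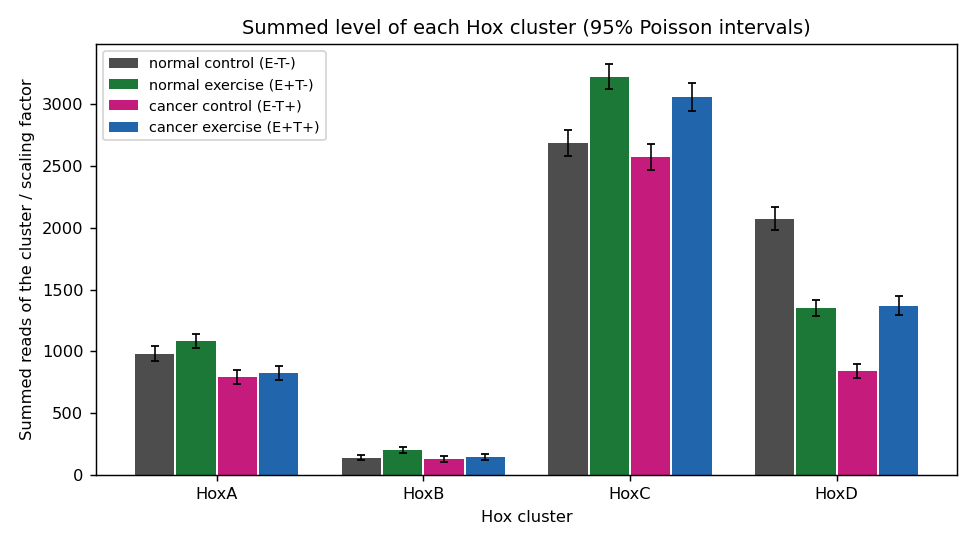
Bars give the reads of each cluster divided by the scaling factor of the library, on an axis from 0, with 1 bar per library and 95% Poisson intervals for counting error. HoxC is the highest cluster in each library, and HoxD is highest in normal control (2071) and lowest in cancer control (839.6).

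The 3 genes with the most reads were the same in each library, Hoxc10, Hoxc9 and Hoxd8, and they took 67.2%, 66.2%, 70.5% and 72.2% of the Hox reads. This group of 3 was formed after the values were seen. Hoxc10, a gene of lumbar and hindlimb position, had normalized read counts of 1466, 1867, 1472 and 1703. Hoxc9, active in the embryonic trunk where it helps to set motor neuron identity, had 902, 989, 912 and 1153. Both were nearly level across the libraries. Hoxd8, a gene of the middle of the HoxD cluster, had 1580.4, 1022, 666 and 1033. It was the first of the Hox genes by reads in normal control, the second in normal exercise and the third in both cancer libraries, while Hoxc10 was first in the other 3 libraries.

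Below them lay genes of positions 9 and 10 and of the middle of the clusters. Hoxa10, a paralog of Hoxc10 also known for the uterus, had normalized read counts of 307, 367, 201 and 206. Hoxa9, known in blood stem cells and in muscle satellite cells of aged mice, had 285, 271, 106 and 159. For both, the 2 libraries without a tumor lay above the 2 with a tumor. Hoxd9, a paralog of Hoxc9, had 187, 162, 126 and 165, with cancer control lowest. Hoxa7 of the trunk had 105, 129.7, 150.0 and 194. It was the only one of these whose 2 tumor libraries lay above the 2 without. Hoxc6, used at forelimb and thoracic levels, had 140.4, 216, 94.3 and 94.3. Hoxa5, needed for lung and neck skeleton, had 123, 85.8, 206 and 99.6, and was highest in cancer control.

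Genes around a normalized read count of 64 ranged from nearly level to far apart. Hoxd3, which shapes the upper neck vertebrae, had 151, 63.2, 26.8 and 52. Hoxd10, the third paralog at position 10 and important for hindlimb motor neurons, had 88.3, 81.9, 2.2 and 75.8. It rested on 83, 101, 2 and 70 reads, so that cancer control alone stood apart. Hoxa11, a gene of the lower leg and forearm segment, had 72.3, 101, 46.1 and 65. Hoxb7, a trunk gene, had 53.2, 87.6, 62.1 and 56.3 and was the most abundant gene of HoxB. Hoxa4 had 34, 123, 25 and 44 reads, with normal exercise highest. The thoracic gene Hoxc8 had normalized read counts of 51.1, 62.5, 34.3 and 45.5, and Hoxc4 at the head end of HoxC had 59.5, 62.5, 38.6 and 34.7. Both of these HoxC genes were higher in the 2 libraries without a tumor.

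Members below that level rested on few reads. Hoxd4 had 51, 24, 17 and 38 reads. Hoxa3, needed for thymus and parathyroid, had 46, 25, 27 and 31, and Hoxc5 had 39, 29, 16 and 24. In all 3 of these the highest library was normal control. Hoxb3 had 27, 45, 8 and 22 reads. Hoxb5, known in the enteric nervous system, had 5, 31, 19 and 40. Hoxb4, known in blood stem cells, had 31, 9, 2 and 3. These HoxB genes differed in which library was lowest, namely cancer control for Hoxb3 and Hoxb4 and normal control for Hoxb5. Hoxb8 had 0, 30, 9 and 11 reads, and Hoxc11 had 25, 0, 2 and 2. Hoxa2, a gene of the second pharyngeal arch, had 3, 10, 24 and 12.

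**Figure D3:**
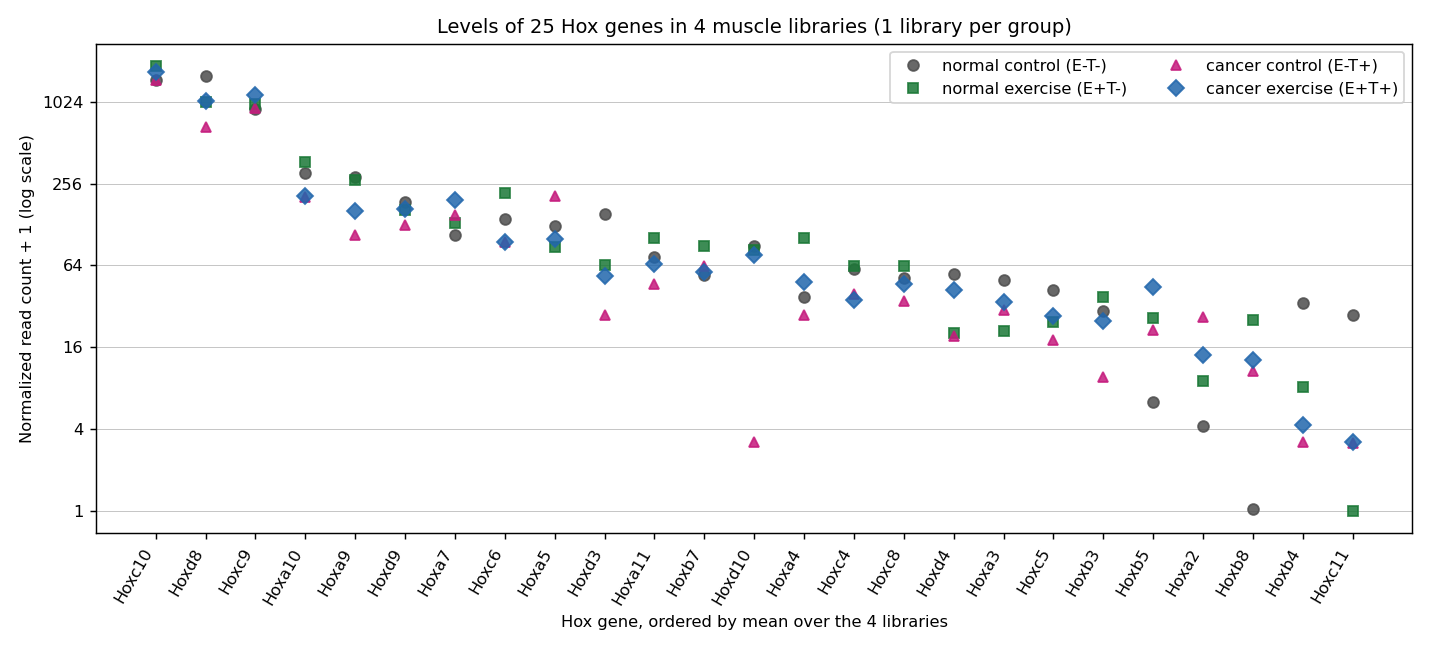
Points give the normalized read count plus 1 of the 25 Hox genes that reached 16 in at least 1 library, on a log scale, with the genes ordered by their mean and 1 point per library. Hoxc10 and Hoxc9 have nearly coinciding points, while Hoxd10 has a single low point in cancer control, at a normalized read count of 2.2.

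The 14 other members had at most 16 reads in any library. Beside the 6 genes without reads, they were Hoxb2 with 1, 16, 15 and 4 reads, Hoxb6 with 12, 6, 3 and 0, Hoxd11 with 9, 1, 0 and 0, Hoxb9 with 0, 2, 4 and 0, Hoxa6 with 1 read in normal exercise alone, and the genes of position 13 given above. Hoxd11 is the HoxD gene that lies next to Hoxd10 on the side of Hoxd13.

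Some of these reads cannot be assigned to 1 strand with certainty, because counting by strand is not given in the sources used here. Hoxa3 and the antisense transcript Hoxaas2, whose exons overlap over 503 bases on opposite strands, had 46, 25, 27 and 31 reads and 53, 25, 27 and 31 reads, the same number in 3 of 4 libraries. Hoxa11 lay opposite Hoxa11os over 800 bases, which had 49, 59, 11 and 18 reads. Hoxd3 and Hoxd4 lay opposite Hoxd3os1 over 347 bases, and Hoxd3os1 had 753, 551, 440 and 497 reads, several times those of either gene. Values of Hoxa3, Hoxa11, Hoxd3 and Hoxd4 are therefore uncertain beyond counting error. Hoxb2 and Hoxb3 overlap Hoxb3os on the opposite strand over 953 and 2250 bases. Hoxa7 lies opposite Hoxaas3 over 586 bases and Hoxa4 opposite Gm29430 over 255. On the same strand, Hoxd10 and Hoxd11 share 104 and 455 exon bases with Gm28309, and Hoxd3 and Hoxd4 share 2225 and 1154 with Gm28230. How reads in these overlaps were counted is likewise not known, which includes those of Hoxd10.

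The order of the 25 genes was largely shared between libraries. Spearman's rho across these genes, which were ranked within each library and are not independent replicates, lay between 0.82 (normal control and cancer control) and 0.94 (normal exercise and cancer exercise). Stability of single genes was described by the range, the highest minus the lowest log2 value over the 4 libraries. Its median was 1.52 over the 31 Hox genes that reached 4 and 1.36 over all 15485 such genes. The range was at least 2-fold for 23 of the 31, and the share over all genes was 64.4%.

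Range went with level for Hox genes as for all genes. For means of 4 to 16 normalized reads the median range was 3.56 over 6 Hox genes and 3.56 over 1945 genes. Between 16 and 64 it was 1.52 over 9 Hox genes and 1.75 over 2731 genes, and between 64 and 256 it was 1.15 over 8 and 1.08 over 4102. The 3 abundant members were set beside the 2428 genes with a mean of 512 to 2048, a band chosen after their values were seen. Hoxc10 had a range of 0.35, and 11.2% of the genes in this band had a smaller one. Hoxc9 had a range of 0.36, with 11.7% smaller, and Hoxd8 one of 1.25, with 72.9% smaller. Thus 2 of the 3 most abundant Hox genes were among the steadier genes of their level on the deposited scale, and the third was not. Under total count scaling Hoxc10 differed by 0.51 between normal exercise and normal control, so its place depends on the scaling.

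**Figure D4:**
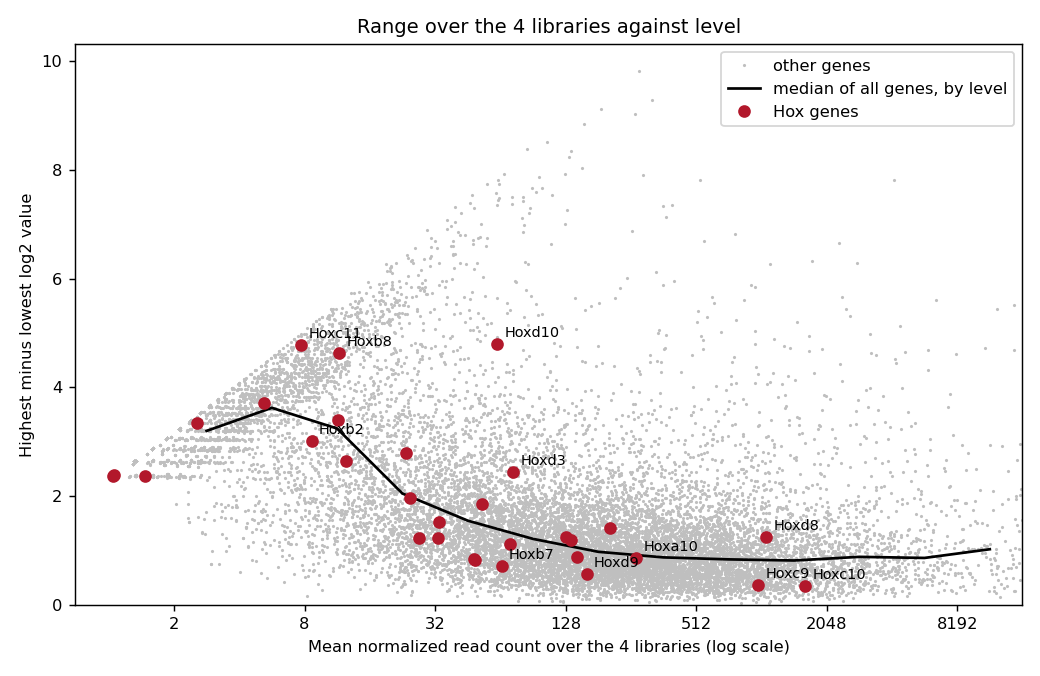
Each point is a gene, with the mean normalized read count over the 4 libraries on a log axis and the highest minus the lowest log2 value on the other, red for Hox genes and grey for other genes, and the line is the median of all genes by level. Most Hox genes scatter around the line, Hoxc10 (0.35) and Hoxc9 (0.36) lie below it, and Hoxd10 (4.80) lies far above it.

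What exercise does in healthy mice was the first question. In normal exercise against normal control, 13 of 29 Hox genes that met the minimum differed at least 2-fold, 5 higher and 8 lower. A gene met the minimum when either compared library had a normalized read count of 4 or more, and differences are of log2(normalized read count + 1), which understates those of low genes. The study's text gives a read count of 4 without its scale. With a deposited log2 value of at least 4 in either library, 8 of 24 Hox genes differed, beside 14.3% of all genes. Over all genes that minimum gave 1799, nearly the count in the study's text, while the linear minimum gave 3121. The linear minimum is thus looser than the rule the study appears to have used. With the minimum on the linear scale, 21.5% of all genes differed, with 9.44% higher and 12.1% lower. Of the 13, 4 had at most 12 reads in both libraries. For 10 of them the counting interval also lay on 1 side of no change, where the share over all genes was 17.7%. The median difference was 0.07 over the Hox genes and -0.01 over all genes.

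Higher with exercise were Hoxa4, Hoxb5, Hoxb8 and the low genes Hoxa2 and Hoxb2. Hoxa4 differed by 1.44 on the log2 scale (counting interval of the read ratio 0.91 to 2.06) and Hoxb5 by 2.04 (0.87 to 3.96). Hoxb8 went from 0 to 30 reads, 7.62-fold higher against a floor of 3 reads, with a lower log2 counting limit of 2.54. For Hoxa2, with 3 and 10 reads, the ratio was 2.54 and its interval of -0.61 to 3.84 on the log2 scale spanned no change. Lower were Hoxd3 at -1.24 (-1.67 to -0.85), Hoxd4 at -1.44 (-2.24 to -0.75), Hoxa3 at -1.24 (-2.04 to -0.54) and Hoxb4 at -2.04 (-3.43 to -1.07). Hoxc11 went from 25 reads to 0, 10.9-fold lower against the floor of 3 reads, with an upper log2 counting limit of -3.04. The remaining 3 lower genes, Hoxb6, Hoxb13 and Hoxd11, had at most 12 reads in either library.

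By cluster, all 6 HoxD genes that met the minimum had a lower value with exercise, 3 of them at least 2-fold, and their median was -0.94 (under total count scaling 5 of 6 and -0.78, with Hoxd10 at 0.05). Hoxd8 differed by -0.63 (-0.74 to -0.52) and Hoxd10 by -0.11 (-0.54 to 0.33). HoxC leaned slightly the other way, with a median of 0.13, and Hoxc10 differed by 0.35 (0.25 to 0.44) and Hoxc9 by 0.13 (0.01 to 0.26). HoxB was mixed, with 3 genes higher and 3 lower of 8.

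The tumor without exercise was examined by comparing cancer control with normal control, and this comparison held the most Hox differences. Of 30 Hox genes that met the minimum 17 differed at least 2-fold, 5 higher and 12 lower, of which 5 had at most 12 reads in both libraries. With a deposited log2 value of at least 4 there were 12 of 25, beside 40.4% of all genes. This pair also differed most over all genes, where the share was 45.1%, with 20.9% higher and 24.2% lower. The counting interval lay on 1 side for 15 Hox genes, beside 40.6% of all genes. The median difference was -0.61 over the Hox genes and -0.04 over all genes, with 20 of the 30 Hox values below 0.

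All 6 HoxD genes that met the minimum had a lower value with the tumor under each scaling, 5 of them at least 2-fold, with a median of -1.98. Hoxd10 differed most, at -4.80, from 83 reads to 2, a ratio of 41.2 with a log2 counting interval of -8.43 to -3.47. Hoxd3 differed by -2.45 (-3.17 to -1.88), Hoxd4 by -1.52 (-2.46 to -0.76) and Hoxd8 by -1.25 (-1.38 to -1.11). Hoxd11, with 9 reads and 0, was 2.98-fold lower against the floor of 3 reads, with an upper log2 counting limit of -0.97. Hoxd9, between Hoxd8 and Hoxd10 on the chromosome, differed by -0.56 (-0.92 to -0.22) and did not reach 2-fold. Hoxd3os1, opposite Hoxd3 and Hoxd4, differed by -0.76.

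Outside HoxD, Hoxa9 differed by -1.42 on the log2 scale (-1.77 to -1.09), Hoxb3 by -1.63 (-3.09 to -0.57) and Hoxc5 by -1.22 (-2.21 to -0.40). Hoxb4, with 31 and 2 reads, had a ratio of 15.4 (log2 interval -7.05 to -1.97), and Hoxc11, with 25 and 2 reads, one of 12.4 (-6.76 to -1.63). Hoxb6 and Hoxb13 were the other lower genes, on at most 12 reads. Higher were Hoxb5 at 1.75 (0.47 to 3.71), Hoxa2 at 2.65 (1.29 to 5.39) from 3 reads to 24, and Hoxb8, from 0 reads to 9. Hoxb8 was 3.02-fold higher against the floor of 3 reads, with a lower log2 counting limit of 0.99. Hoxb2 and Hoxb9, with at most 15 reads, completed the 5. The abundant Hoxc10 and Hoxc9 differed by 0.01 (-0.10 to 0.11) and 0.02 (-0.12 to 0.16), the smallest differences of named members in this comparison.

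Markers of cell types also differed between these libraries, where 45.1% of all genes did. Of the 10 muscle fibre markers 4 were lower and 1 higher in cancer control (4 and 2 under total count scaling), and their summed normalized read count was 1721165, 1438775, 983892 and 1142169.6. Of the 10 tendon markers 9 were lower in cancer control, their sum was 10901, 5424, 1741 and 4442, and Kera, Chad and Comp had 0 reads in cancer control. Of the 12 fibroblast markers 7 were lower, with sums of 111134, 77194, 50186 and 55968 and no marker at 0. Of 6 satellite cell markers that met the minimum 4 were lower, with sums of 1580.0, 1133, 298 and 642, and Pax7, the defining marker, had 23, 27, 2 and 0 reads. All 8 adipocyte markers were lower, with sums of 38587, 21573, 12667 and 26719.7, and Lep had 0 reads in both tumor libraries. Skin keratinocyte markers went the other way, with 10 of 12 higher and sums of 262, 222, 944 and 126, and Krt5, Krt1, Krt15, Dsg1a and Flg2 had reads in cancer control alone. Over the libraries the fibre, tendon, fibroblast, satellite cell, adipocyte and HoxD sums were all highest in normal control and lowest in cancer control. The satellite cell sum was largely Chodl, with 1284, 739, 122 and 445. Myf5, Msc and Heyl were also lowest in cancer control, but Pax7 and Vcam1 were lowest in cancer exercise. Vcam1, Msc and Heyl were highest in normal exercise. The part of these cell types in the Hox differences was not tested.

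Of markers of epithelial tumors, Cldn4 and Lgals4 had 0 reads in every library and Epcam had 1 read in normal exercise alone. Krt20, a keratin of gut epithelium, had 0, 0, 177 and 52 reads. The sums of the 10 markers were 86.1, 46.8, 309 and 113, of which Krt20 gave 189 in cancer control and 56.3 in cancer exercise. Vil1 had 13, 3, 0 and 0 reads, and Cdh1 had 51, 20, 67 and 9. Of 6 that met the minimum, 3 were higher and 1 lower in cancer control than in normal control. The study's text reports that the gastrocnemius of cancer exercise showed no tumor growth. Schwann cell markers had sums of 5703, 3359.7, 6985 and 2331, endothelial markers 4307, 5762, 4634 and 5699, and leukocyte markers 1294, 1528, 4367 and 3084. The higher leukocyte sums came mostly from S100a8, with 17.1, 71.2, 2054 and 958, and Cd68, with 92.6, 94.7, 1024 and 319. Of 8 leukocyte markers that met the minimum, 4 had a higher and 4 a lower value in cancer control than in normal control. The part of these cell types in the Hox values was not tested.

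Cancer exercise was set against cancer control to see exercise in tumor-bearing mice. In this pair 8 of 26 Hox genes that met the minimum differed at least 2-fold, 5 higher and 3 lower, beside 30.6% of all genes, with 15.6% higher and 15.1% lower. With a deposited log2 value of at least 4 there were 6 of 23, beside 24% of all genes. The counting interval lay on 1 side for 6 of the 8 and for 25.8% of all genes. Total count scaling gave 4 higher and 3 lower, with Hoxb5 under 2-fold. The median difference was 0.37 over the Hox genes and 0.01 over all genes. Hoxd10 was the furthest apart, from 2 reads to 70, a difference of 4.58 and a ratio of 35.4 (log2 interval 3.24 to 8.22). Hoxd4 differed by 1.13 (0.32 to 2.09), Hoxb3 by 1.37 (0.25 to 2.85) and Hoxb5 by 1.05 (0.27 to 1.96). Hoxa5 was lower, at -1.04 (-1.42 to -0.68). Hoxb2 was lower on 15 and 4 reads, and Hoxa13 and Hoxb9 each rested on 4 reads against 0.

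All 5 HoxD genes that met the minimum had a higher value in cancer exercise under each scaling, with a median of 0.93, and 2 of them, Hoxd4 and Hoxd10, reached 2-fold. Hoxd8 differed by 0.63 (0.49 to 0.78) and Hoxd3 by 0.93 (0.23 to 1.72). This comparison and the previous one share the cancer control library, so that a value particular to that library enters both with opposite sign. The 5 HoxD genes that reached 16 each had their lowest value in cancer control and their highest in normal control, except that Hoxd10 was highest in normal exercise under total count scaling. Of all 25 Hox genes that reached 16, 13 (52%) had their lowest value in cancer control, as did 34.9% of 13197 genes, and 2 (8%) had their highest there, as did 32.3%.

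The fewest Hox differences were found for the tumor in exercised mice, with cancer exercise set against normal exercise. They were 6 of 27 genes that met the minimum, 2 higher and 4 lower, beside 30.3% of all genes, with 13.9% higher and 16.3% lower. The counting interval lay on 1 side for 3 of them and for 26.3% of all genes. With a deposited log2 value of at least 4 there were 3 of 22, beside 24% of all genes. Total count scaling gave 7 genes, 1 higher and 6 lower, with Hoxd4 under 2-fold. The median difference was -0.28 over the Hox genes and -0.03 over all genes. Hoxc6 was lower at -1.19 (-1.56 to -0.84), Hoxa4 was lower at -1.05 (-1.60 to -0.56), and Hoxd4 was higher at 1.05 (0.31 to 1.88). The other 3, Hoxa13, Hoxb2 and Hoxb6, had at most 16 reads. Hoxd8 differed by 0.02 (-0.11 to 0.14), Hoxd9 by 0.02 (-0.29 to 0.33) and Hoxd10 by -0.11 (-0.57 to 0.34). HoxD had a median of 0.02 in this pair (-0.14 under total count scaling) and of -1.98 for the tumor without exercise. Whether these medians differ beyond the spread between mice was not tested.

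**Figure D5:**
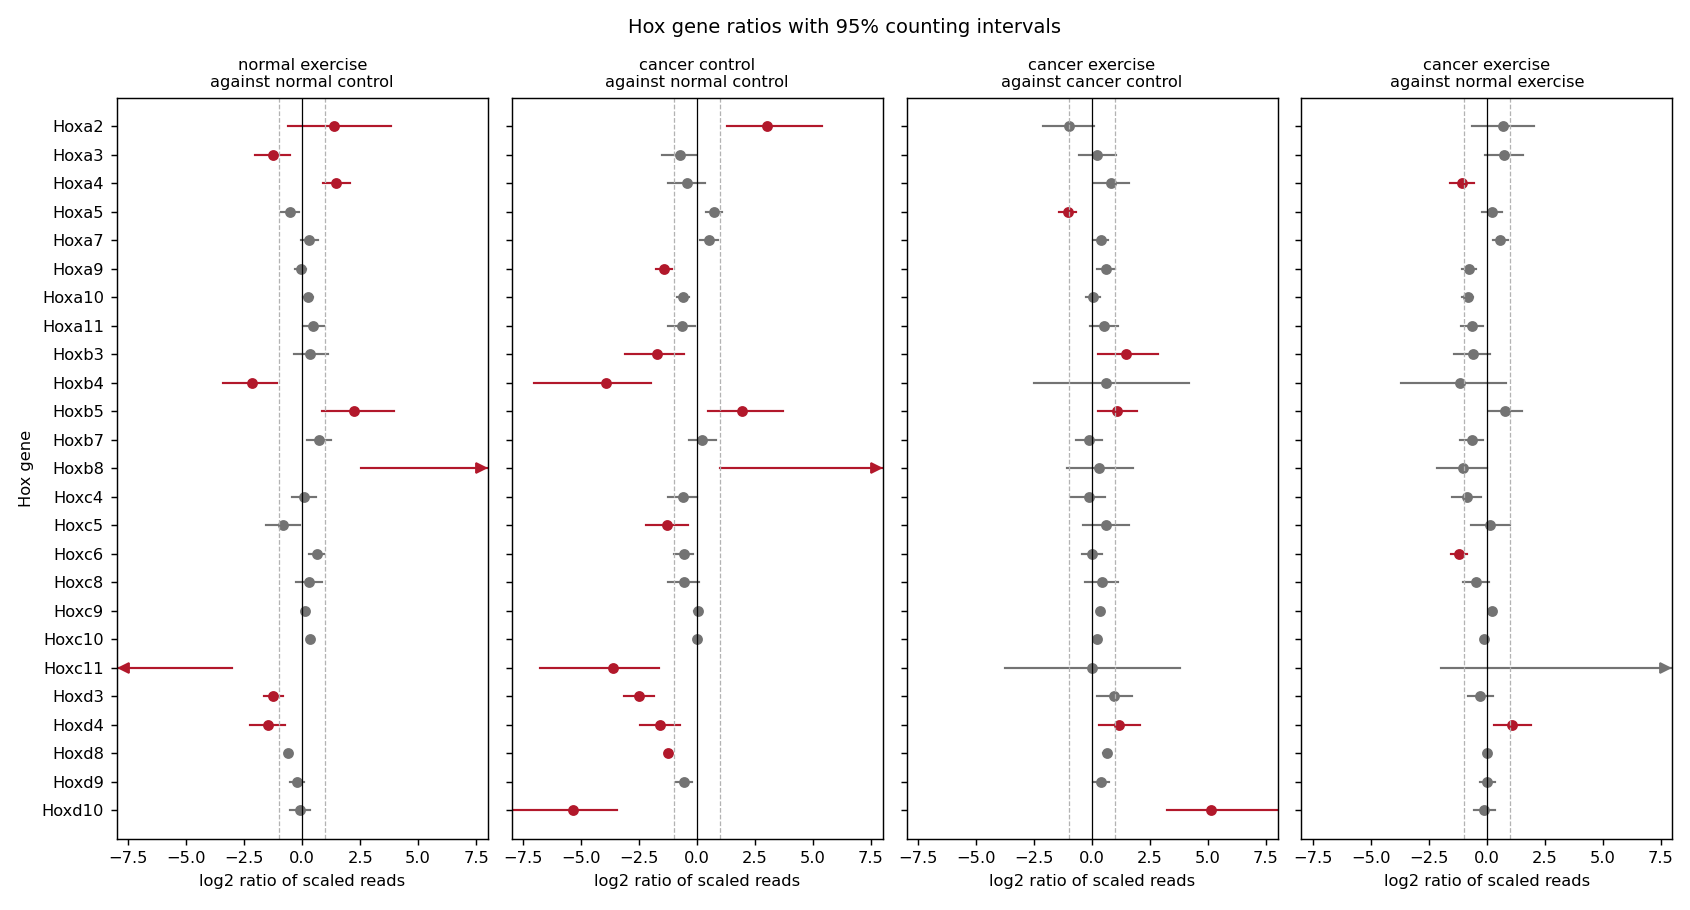
Points give the log2 ratio of scaled reads of 25 Hox genes in the 4 comparisons, lines their 95% counting intervals, arrows ratios with 0 reads in 1 library, red the genes counted as different and dashed lines a 2-fold ratio. Hoxc9 and Hoxc10 lie near the centre line in each panel, and Hoxd10 lies to the far left for the tumor without exercise and to the far right for exercise with the tumor.

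Over the 4 comparisons, 9 of the 25 genes differed in none, namely Hoxa7, Hoxa10, Hoxa11, Hoxb7, Hoxc4, Hoxc8, Hoxc9, Hoxc10 and Hoxd9. Another 14 differed in 1 or 2, and 2 genes, Hoxb5 and Hoxd4, in 3 or 4. Under total count scaling Hoxb5 fell under 2-fold for exercise in tumor-bearing mice and Hoxd4 for the tumor in exercised mice. Of all 13197 genes that reached 16, 45.6% differed in none, 42.3% in 1 or 2 and 12.1% in 3 or 4. Among the low genes Hoxb2, which did not quite reach 16, differed in all 4. The genes that differed in none included 2 of the 3 genes with the most reads.

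The counts of related genes below stand beside shares over all genes of 21.5% for exercise in healthy mice, 45.1% for the tumor without exercise, 30.6% for exercise in tumor-bearing mice and 30.3% for the tumor in exercised mice.

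Hox proteins bind DNA with TALE homeodomain partners (Pbx, Meis and Pknox), and 10 of 11 genes of that list, which also held the related repressors Tgif1 and Tgif2, were measured with reads. Pknox2 had 273, 636, 448 and 494 reads and did not differ 2-fold in any comparison, nor did Pbx2 or Pknox1. Meis3 had 37, 20, 8 and 20 reads and differed in 3 comparisons. Tgif1 had 26, 57, 563 and 169 reads and rose most in this list with the tumor without exercise, by 4.39 on the log2 scale. In the list 1 gene was higher and 2 lower for exercise in healthy mice, 3 and 2 for the tumor without exercise, 1 and 2 with exercise in tumor-bearing mice, and 1 and 0 with the tumor in exercised mice.

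Limb genes set the hindlimb label beside the Hox pattern. Pitx1 and Tbx4, which specify the hindlimb in the embryo, had 5, 15, 10 and 2 reads and 4, 5, 4 and 8 reads, and Tbx5 of the forelimb had 6, 0, 8 and 0, so that these genes did not separate the limbs at this depth. Tbx15, a limb and fast muscle fibre gene, was abundant, with 1857, 1779, 869 and 815 reads. It differed by -1.08 with the tumor without exercise and by -0.71 with the tumor in exercised mice. Prrx1, a gene of limb mesenchyme, had 738, 707, 447 and 459 reads. Of 14 genes of this list that met the minimum, none was higher and 5 were lower with the tumor without exercise, and none of 13 was higher and 4 were lower with the tumor in exercised mice. With exercise 1 was higher and 2 lower in healthy mice, and 2 and 4 in tumor-bearing mice.

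Polycomb proteins keep Hox genes off and trithorax proteins keep them on. Of 24 Polycomb genes, 3 were higher and none lower for exercise in healthy mice, 7 higher and 3 lower for the tumor without exercise (10 of 24, near the 45.1% of all genes), 2 and 2 with exercise in tumor-bearing mice, and 1 and 2 with the tumor in exercised mice (1 and 4 under total count scaling). Ezh1, a histone methyltransferase of non-dividing cells, had 318, 456, 1320 and 665 reads and differed by 2.06 with the tumor without exercise. Cbx6 had 969, 1424, 402 and 559 reads and differed by -1.26 there. Bmi1 had 651, 1121, 648 and 521 reads and did not reach 2-fold in any comparison. Among 16 trithorax and demethylase genes none reached 2-fold for exercise in healthy mice, 3 were higher and 1 lower for the tumor without exercise, none higher and 1 lower with exercise in tumor-bearing mice, and 1 and 1 with the tumor in exercised mice (0 and 1 under total count or trimmed mean scaling). Their most abundant gene, Kmt2e, had 1688, 2105, 1378 and 1614 reads.

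Cdx proteins and retinoic acid switch Hox genes on in the embryo. Cdx1, Cdx2 and Cdx4 had 0 reads in every library. Of the retinoic acid genes, Rxra, Rxrb and Aldh1a1 were among those that did not reach 2-fold in any comparison, and others were far apart. Cyp26b1, which degrades retinoic acid, had 248, 4722, 686 and 422 reads, and differed by 3.85 for exercise in healthy mice and by -3.06 for the tumor in exercised mice. Aldh1a2, which makes it, had 336, 180, 9 and 57 reads and was lower by more than 2-fold in each comparison except exercise in tumor-bearing mice, where it was higher. The receptor Rxrg had 815, 1713, 39 and 338 reads, and the binding protein Crabp1 had 11, 4, 918 and 155. Of 15 genes of the list that met the minimum, 3 were higher and 5 lower with the tumor without exercise, 3 and 5 with exercise in tumor-bearing mice, and 2 and 7 with the tumor in exercised mice, while 2 and 2 of 14 were so with exercise in healthy mice.

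Genes beside the clusters were read as neighbours that do not belong to the Hox family. Mtx2, beside HoxD, had 399, 351, 392 and 396 reads and stayed within 2-fold in every comparison, including the tumor without exercise (-0.02). Lnp, also beside HoxD, had 325, 412, 171 and 265 reads and was lowest in cancer control. It differed by -0.91 with the tumor without exercise and by 0.65 with exercise in tumor-bearing mice, each within 2-fold. Hibadh, beside HoxA, had 1839, 2404, 3070 and 2150 reads and also stayed within 2-fold. Beside HoxC, Calcoco1 had 845, 862, 6513 and 2376 reads and was higher with the tumor without exercise by 2.96, while Cbx5 had 966, 1094, 415 and 570 and differed by -1.21. The noncoding transcript Hotairm1 of the HoxA end had 14, 51, 62 and 23 reads. Of 15 genes of this list that met the minimum, 1 was higher and 2 lower for exercise in healthy mice, 3 and 3 for the tumor without exercise, and 1 and 4 with exercise in tumor-bearing mice. Of 14, 2 were higher and 1 lower with the tumor in exercised mice (1 and 1 under total count scaling).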

How the data were processed

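RNA from gastrocnemius was sequenced with the QuantSeq 3′ kit. According to the methods, the authors mapped reads with Bowtie2, took gene counts from Bedtools coverage and normalized them by quantiles in edgeR, and the submitters' processing notes name mm10. The deposited values are on a log2 scale, of normalized counts to which 1 was added. Annotation and the treatment of strand, duplicates and reads matching several genes are not given in the sources used here.

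Reads were rebuilt by inverting the negative binomial quantile adjustment, with 1 scaling factor per library and 1 dispersion (0.3396). With it 100% of the deposited log2 values fell within 0.0006 of a whole read count, and between 94.9% and 96.2% of values per library were tied to a single count. Counts of the most abundant genes, and so the totals, are approximate. The code was checked on simulated data. Hoxc10 in normal exercise could also be 1 other read count.

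Groups came from the sample titles. A gene differed when the deposited log2 values were at least 2-fold apart and either library had 4 or more normalized reads. The study states a fold change of 2 and a read count of 4 but not the scale of the latter. A deposited log2 value of 4 was therefore also used, an alternative chosen after seeing the data. It gave 1799 genes for exercise in healthy mice and 3014 for exercise in tumor-bearing mice, nearly the counts in the study's text. The linear minimum, on which the main Hox counts rest, gave 3121 and 4437 and is looser. Intervals are 95% Clopper-Pearson intervals of read ratios or shares and Poisson intervals of counts. Folds against 0 reads were computed against a floor of 3 reads in that library and leave out the counting error of the other library. The methods name no molecular identifiers, so these intervals and floors hold for counting error alone. Hox genes were named with values in each library when they reached 16 in at least 1 library. Of each related list, up to 5 with the highest mean could be named, and any that differed in at least 3 comparisons and reached 16. The low Hox genes, Pitx1, Tbx4, Tbx5, the Cdx genes, the overlapping antisense transcripts and single markers were named after their values were seen. So were Lnp and Skap2. Some single-gene results are not reported here. Members and lists were chosen with earlier results of these data known. Alternatives were 3 scalings, a pseudocount of 4, other minimums, a 4-fold threshold, the counting interval and leaving out each library. Sequences came from GENCODE vM21 and RefSeq. Python 3.11.15, numpy 2.4.6, scipy 1.17.1, pandas 2.3.3, biopython 1.88 and matplotlib 3.10.9 were used.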

Additional observations from a re-analysis of the deposited data

Results flagged for a closer look

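For 2 Hox genes exercise went at least 2-fold one way without a tumor and at least 2-fold the other way with it. The difference between the contrasts was not tested, since each rests on 1 library per group. Hoxb2 differed by 2.74 without and by -1.66 with the tumor (-4.40 between them), on at most 16 reads in any library. Hoxd4 differed by -1.44 and 1.13 (2.57 between them), and its reads lie opposite the more abundant Hoxd3os1.

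Genes of the related lists met the same condition, also untested. For Aldh1a2 the contrasts differed by 3.84, for Meis3 by 2.47, for Hotairm1 by -2.79, for Phf19 by -3.46, for Stra6 by -4.62 and for Tgif2 by -2.72. Phf19, Stra6 and Tgif2 had at most 26 reads in any library.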

How the results depend on the processing

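With 1 library per group, spread between mice could not be measured, and low genes were limited by reads. Total count scaling moved the median of all genes from -0.01 to 0.15 for exercise in healthy mice and from -0.03 to -0.19 for the tumor in exercised mice, while the trimmed mean of M values differed from the deposited scaling by at most 0.00821%. Of 40 recomputed counts of Hox genes that differed, 26 were less than 1.5 times away from the count in the report and 14 were further. For exercise in healthy mice the count was 13, and it was 7 with a minimum of 4 in both libraries, 8 with a minimum of 16 in at least 1 library or a deposited log2 value of at least 4, and 7 at 4-fold. For the tumor without exercise it was 17, and 7, 11 (12 with the log2 value) and 10 under the same settings. For exercise in tumor-bearing mice it was 8, and 5, 5 (6 with the log2 value) and 3. For the tumor in exercised mice it was 6, and 3 with the minimum of 16 or the log2 value, 2 at 4-fold and 3 with the counting interval on 1 side of no change. These settings test fewer genes or ask for more by construction. The log2 minimum, the counting interval and the leaving out of libraries were chosen after seeing the data.

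The median range of the Hox genes, 1.52, was 1.45 under total count scaling, 1.49 under median of ratios scaling, 1.22 with a pseudocount of 4 (1.22 over all genes) and 1.25 with the minimum of 16. With 1 library left out it lay between 1.03, without cancer control (0.89 over all genes), and 1.47, without cancer exercise. Of 400 recomputed differences of single Hox genes, no 2-fold difference changed sign, and 7 left their counting interval. The settings could not have changed the sign of a 2-fold difference. A larger pseudocount cannot reverse a sign, and the scaling factors differed from the deposited ones by at most 6.78%. Among the 7 were Hoxc10, Hoxc9 and Hoxd8 for exercise in healthy mice under total count scaling. No paired analysis was possible because each group has 1 library, so the groups share only 1 replicate number.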
